A study of Mus musculus with 4 samples.

Results

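The genes described here encode proteins of spermatids and sperm, from the protamines that package the sperm nucleus to the enzymes of the acrosome and the motors of the flagellum. They were chosen by name as a list of 46 genes, and an H1t peak was assigned to a gene when it overlapped the GRCm38 gene body by at least 1 bp. Of the 48681 listed H1t peaks, 58 lay in these genes. Testicular cells of C57BL6 mice at postnatal day 20 gave 2 libraries of chromatin precipitated with an anti-H1t antibody and 2 input libraries made with no antibody. They are labelled pachytene cells, and the authors describe testicular cells of this age as enriched in pachytene spermatocytes. The methods describe no step that enriches this stage, and a peak table without expression values does not allow the cell type to be checked. Both ChIP libraries were pooled against both inputs before peaks were called (39221290 ChIP and 30377916 input fragments after duplicates were removed), so replicate error cannot be given for any value. Each interval below covers counting error only. The peaks were called at an unadjusted p of 0.05. Their fold is the ratio of the ChIP pileup to the local background of the peak caller, both raised by 1. At 50 of the 58 peaks this background was within 2% of the genome-wide 4.95 fragments, so there the fold followed the pileup almost alone.

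H1t is a linker histone, a protein that binds the nucleosome where DNA enters and leaves it, and it is the most abundant linker histone of spermatocytes. Many genes of spermatids and sperm are transcribed first in pachytene spermatocytes or in round spermatids, and the transcripts of several of them are stored before translation. Later in spermatids the histones are removed, replaced first by the transition proteins and then by the protamines.

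H1t peaks were found in 18 of the 46 genes, or 39.1% (95% Clopper-Pearson interval 25.1 to 54.6). Of all 21911 protein-coding genes, 35.1% held at least 1 peak. The share among genes of like length, protein-coding genes on the same chromosome within 20% of the length of the gene concerned, summed over the 46 genes to 15.9 genes, or 34.6%. The 58 peaks fell in 2797 kb of gene bodies, a density of 0.0207 peaks per kb (95% exact Poisson interval 0.0158 to 0.0268), and autosomal protein-coding genes together held 0.0196 per kb. The share of genes with a peak therefore differed from that of genes of their length by less than the counting error. For the number of peaks, the mean density of the like-length genes came to 53.3 peaks over the 46 genes. Their median density, which was 0 for 33 of the 46, came to 43.7. No interval was worked out for that comparison. Gene length ordered the list: peaks lay in all 11 genes of 50 kb or more, in 5 of the 14 between 10 and 50 kb, and in 2 of the 21 under 10 kb. Among all protein-coding genes the shares in these length classes were 79.6%, 33.3% and 8.63%. Shares over all protein-coding genes, here and below, include chromosomes X and Y, where none of the 46 genes lies. Of the 19413 peaks in protein-coding genes, 19391 were in autosomal ones.

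**Figure D1:**
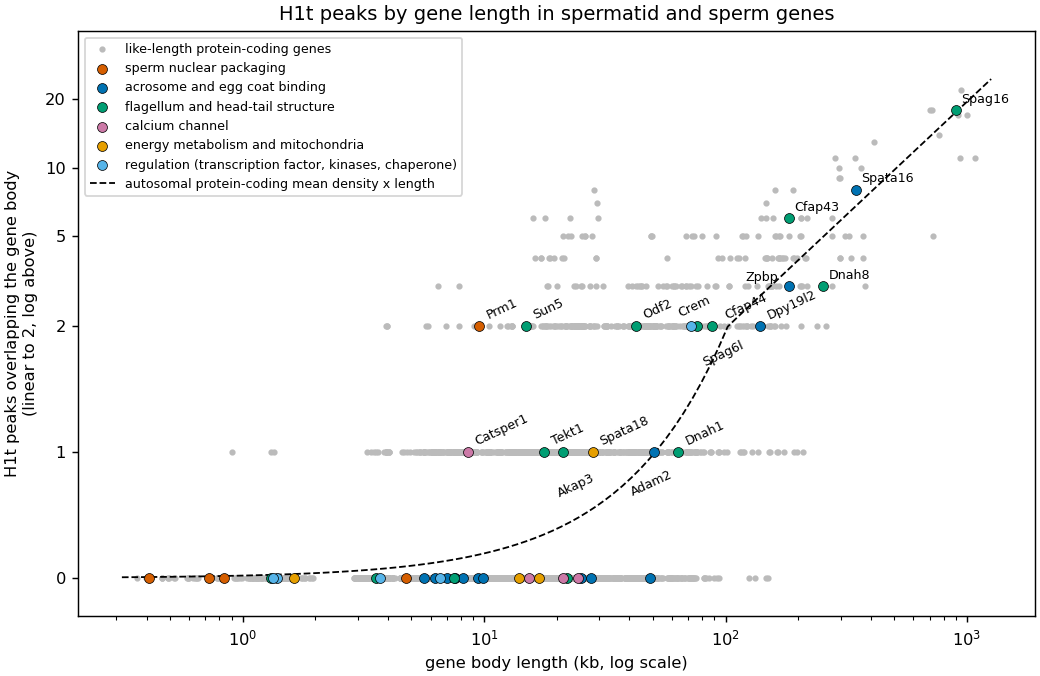
Number of H1t peaks overlapping each gene body (vertical axis, linear to 2 and logarithmic above) against gene body length in kb (logarithmic axis). Coloured points are the 46 spermatid and sperm genes by role, grey points are their like-length genes, and the dashed line is the mean autosomal density of 0.0196 peaks per kb multiplied by length. The 28 genes without a peak lie at 0 and are all shorter than 50 kb, and Spag16 with 18 peaks lies near the line.

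To show what DNA the peaks hold, the middle 200 bases of the strongest peak are printed for the 8 genes with the highest fold (GRCm38, read 5′ to 3′ on the strand of the gene, with each CpG in capitals). CpG is the dinucleotide at which mammalian DNA is methylated. The windows of Cfap43 and Spata16 hold 0 CpG and that of Catsper1 holds 6, and 143 of the 200 bases of the Catsper1 window and 74 of those of the Dnah8 window are coding. In the windows of Sun5 and Spag16, 91.5% and 92.5% of the bases are masked as repeats in the reference genome, against 0% in those of Cfap43, Odf2 and Catsper1.
Cfap43 (chr19:47770618-47770817, minus strand): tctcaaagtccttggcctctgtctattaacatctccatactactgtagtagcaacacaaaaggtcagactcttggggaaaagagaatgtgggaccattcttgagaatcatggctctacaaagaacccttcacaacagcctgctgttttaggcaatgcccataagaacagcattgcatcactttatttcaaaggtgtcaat
Spata16 (chr3:26780541-26780740, plus strand): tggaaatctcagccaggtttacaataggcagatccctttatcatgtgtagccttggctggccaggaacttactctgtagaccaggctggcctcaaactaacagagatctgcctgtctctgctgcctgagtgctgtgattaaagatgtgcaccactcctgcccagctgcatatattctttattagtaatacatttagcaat
Odf2 (chr2:29902385-29902584, plus strand): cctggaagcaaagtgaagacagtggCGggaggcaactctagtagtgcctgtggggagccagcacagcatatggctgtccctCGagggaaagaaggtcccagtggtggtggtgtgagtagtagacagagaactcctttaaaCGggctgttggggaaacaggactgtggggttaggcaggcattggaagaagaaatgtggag
Sun5 (chr2:153871192-153871391, minus strand): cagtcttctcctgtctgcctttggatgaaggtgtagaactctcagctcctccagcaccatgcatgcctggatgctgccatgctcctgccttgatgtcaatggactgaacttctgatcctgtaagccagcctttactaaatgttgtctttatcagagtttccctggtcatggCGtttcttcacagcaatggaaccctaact
Spag16 (chr1:70354977-70355176, plus strand): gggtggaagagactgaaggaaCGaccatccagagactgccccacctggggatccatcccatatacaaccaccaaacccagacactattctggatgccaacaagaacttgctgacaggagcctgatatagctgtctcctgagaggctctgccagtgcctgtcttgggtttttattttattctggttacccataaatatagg
Dnah8 (chr17:30815610-30815809, plus strand): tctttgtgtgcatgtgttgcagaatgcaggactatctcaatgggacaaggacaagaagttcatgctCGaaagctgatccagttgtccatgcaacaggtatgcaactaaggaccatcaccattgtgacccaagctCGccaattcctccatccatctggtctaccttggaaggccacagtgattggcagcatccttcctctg
Cfap44 (chr16:44426309-44426508, plus strand): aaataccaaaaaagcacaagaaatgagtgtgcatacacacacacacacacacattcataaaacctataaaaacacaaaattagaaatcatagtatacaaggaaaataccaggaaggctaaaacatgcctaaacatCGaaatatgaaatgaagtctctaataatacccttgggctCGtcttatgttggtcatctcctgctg
Catsper1 (chr19:5339658-5339857, plus strand): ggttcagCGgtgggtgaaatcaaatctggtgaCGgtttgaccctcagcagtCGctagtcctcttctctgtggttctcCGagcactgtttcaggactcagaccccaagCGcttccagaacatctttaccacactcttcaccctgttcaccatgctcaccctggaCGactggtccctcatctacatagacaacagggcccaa

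Of the 5 genes for packaging the sperm nucleus, 1 held peaks, 2 in all over 16.2 kb. Tnp1 and Tnp2, which encode the transition proteins, and Prm2, which encodes a protamine, held 0 peaks, as did Prm3, another gene of the protamine cluster. These genes are short (0.410 to 4.76 kb), and their like-length genes rarely held a peak (their shares, summed over the 5 genes, came to 0.170 genes). Prm1, which encodes the other protamine, was the exception with 2 peaks, and none of its 51 like-length genes was denser. Both peaks lay outside the usual transcript. The principal transcript of Prm1 spans 0.561 kb, whereas a longer GENCODE transcript extends the gene body to 9.51 kb, and the RefSeq body of 0.492 kb held 0 peaks. The first peak (chromosome 16 of GRCm38 from 10799789 to 10800227) was centred 3.12 kb upstream of the principal start and the second (10803618 to 10804529) 7.19 kb upstream, and both also overlapped the annotated gene Gm46563. Their folds in the authors' table were 1.77 and 1.72, with unadjusted p of 0.0193 and 0.0251. Prm1, Prm2, Prm3 and Tnp2 lie side by side, so the same peaks were the nearest to all of them, at 3.66 kb from Prm2, 8.88 kb from Prm3 and 11.1 kb from Tnp2. The nearest peak to Tnp1, on chromosome 1, lay 9.69 kb downstream.

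Among the 14 genes of the acrosome and of binding to the egg, 4 held peaks, 14 in all, where the shares of like-length genes summed to 5.75 genes. Spata16, whose human counterpart is needed to form the acrosome, held 8 peaks over 346 kb (chromosome 3, 26637620 to 26983212). All 8 lay in introns, from the second to the last, and were spread over the gene with gaps of 4.64 to 86.4 kb. Their folds ran from 1.68 to 1.89. The density of 0.0231 per kb (interval 0.00999 to 0.0456) was above the median of 0.0154 of its 13 like-length genes, of which 5 were denser, and below the 0.0350 per kb of the 100 kb on either side, where 7 peaks lay. Spata16 thus stood within the range of its like-length genes and did not differ from its own surroundings beyond counting error.

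Zpbp, which encodes a zona pellucida binding protein of the acrosomal matrix, held 3 peaks in introns 2, 6 and 7 over 183 kb. Its density of 0.0164 per kb was exceeded by 18 of 23 like-length genes. Dpy19l2, an inner nuclear membrane protein that anchors the acrosome to the nucleus, held 2 peaks in introns 12 and 16 over 139 kb, and 31 of its 48 like-length genes were denser. These are the most repeat-rich genes of the list, with 59.5% of the Zpbp body and 55.6% of the Dpy19l2 body masked. Spag6l follows closely with 55.3%, and its peaks were 35.0% and 9.76% masked. The Dpy19l2 peaks were 91.8% and 96.3% masked, and 1 Zpbp peak was 97.9% masked while the other 2 were 26.9% and 27.2% masked. Adam2, which encodes the beta subunit of fertilin, a surface protein of sperm, held 1 peak over 50.4 kb, in intron 15, with a fold of 1.76.

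No peak overlapped the genes of the acrosomal protease acrosin (Acr), the acrosomal vesicle protein Acrv1, the membrane protein Spaca1, the lysozyme-like Spaca3, Spaca7, the zona binding protein Zpbp2, the fusion protein Izumo1, the hyaluronidase Spam1, the proprotein convertase Pcsk4 or the surface protein Adam3. The longest of these was Adam3 (48.6 kb, chromosome 8), which was also the longest gene of the whole list without a peak. Of its 89 like-length genes, 59.6% held a peak, and the peak nearest to it lay 46.3 kb upstream. Spaca7 (27.7 kb) and Spaca1 (25.3 kb) had like-length shares of 34.9% and 39.9%. The nearest peak to Spaca1 lay only 1.21 kb upstream of the gene, while that to Pcsk4 lay 96.4 kb away. At such lengths a gene without a peak was common, and the absence of a peak at this depth does not show that H1t was absent.

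Genes of the flagellum and of the junction of head and tail held 38 peaks in 10 of 14 genes, against a sum of 7.23 for the like-length shares. They also made up most of the sequence, 1692 of 2797 kb. Their density of 0.0225 per kb (interval 0.0159 to 0.0308) was close to the 0.0207 of the whole list. Spag16, a component of the central apparatus of the axoneme, alone held 18 of the 58 peaks (31.0%) over 898 kb on chromosome 1 (69826970 to 70725132). Its density of 0.02004 per kb (interval 0.0119 to 0.0317) was close to the median of 0.0185 of the 10 genes nearest in length on that chromosome, which ranged from 0.00691 to 0.0256, and to the 0.0250 per kb of its flanks. All of its peaks lay in introns, 6 of them in intron 11 and 5 in intron 13. The gaps between them ran from 1.91 to 118 kb with a median of 35.8 kb, and the 5 peaks of intron 13 were centred between 496 and 528 kb from the gene start. The highest pileup of all 58 peaks, 13.4 fragments, belonged to a Spag16 peak in intron 11 (70209038 to 70209283). There the local background was also raised, to 7.68 fragments against 4.95 across most of the genome, so that its fold was 1.65, and only 5.35% of all peaks had a fold this low or lower. This peak was masked throughout and had a GC content of 58.1%.

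Without Spag16, the other 45 genes held 40 peaks over 1899 kb, or 0.0211 per kb (interval 0.0151 to 0.0287), so the density of the list did not rest on this gene.

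Cfap43, needed for the axoneme of the sperm tail, held 6 peaks and was the densest of the 11 genes of 50 kb or more, at 0.0329 per kb (interval 0.0121 to 0.0716) against a median of 0.0166 in 21 like-length genes, of which 1 was denser. This count depended on the gene model. The GENCODE body spans 182 kb, but 4 of the 6 peaks were centred 5.96 to 77.0 kb upstream of the principal transcript of 100.5 kb, and 2 of these overlapped the neighbouring genes Gsto1, a glutathione transferase, and Itprip. The RefSeq body held only the other 2. One of these, in intron 21 (chromosome 19, 47770589 to 47770846), had the highest fold of all 58 peaks, 1.93, and the lowest unadjusted p, 0.00795, with no masked base and no CpG. The other, in intron 18, had a fold of 1.69 over a raised background.

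Dnah8 and Dnah1 encode dynein heavy chains, the motors that slide the axonemal microtubules. Dnah8, of the outer arm, had 3 peaks over 253 kb, a density of 0.0119 per kb that 9 of 12 like-length genes exceeded. Of these peaks, 1 covered the whole of exon 69 (168 bp) and 1 the whole of exon 83 (74 bp), while the third lay in intron 88. All 3 also overlapped the annotated gene AC174471.1. Dnah1, of the inner arm, had 1 peak in 63.5 kb, and 40 of its 68 like-length genes were denser. This was the widest of the 58, with 3020 bp from 31259549 to 31262568 on chromosome 14, and it covered exons 75 to 78 and 156 bp of exon 74 at the end of the gene, 993 coding bases in all. It ran past the annotated end of Dnah1 and overlapped the neighbouring gene Bap1, which encodes a deubiquitinase, so that it cannot be assigned to either gene. The longer RefSeq body of Dnah1 (65.5 kb) held 2 peaks, so the place of this gene against its like-length genes depended on the gene model.

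Cfap44, a partner of Cfap43 in the axoneme, held 2 peaks, 1 of which covered all 95 bp of exon 13. Spag6l, also of the central apparatus, held 2 peaks, both in intron 2, while the 100 kb on either side of it held 0 (95% exact Poisson interval up to 0.0184 per kb). Spag6l has a paralogue, Spag6, which held 0 peaks, and whether reads could be placed between the copies was not tested. Odf2, of the outer dense fibres, held 2 peaks in introns 6 and 8 (folds 1.85 and 1.82), which lay within 3 kb of each other, as did only 1 other pair of the list, in Spag16. Sun5, which holds the sperm head to the tail, held 2 peaks in 14.9 kb, 1 at its start and 1 in intron 9, and 5 of its 182 like-length genes were denser. Akap3, a scaffold of the fibrous sheath, and Tekt1, a filament protein of the axoneme, each held 1 intronic peak of the lowest height listed, 9 fragments, with a fold of 1.68. Tekt2, Tekt4, Odf1 and Spem1 held 0, with the nearest peak 1.13 kb downstream of Odf1 and 99.8 kb upstream of Tekt4.

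Of the 4 pore subunits of CatSper, the calcium channel of the sperm tail, Catsper1 held 1 peak and Catsper2, Catsper3 and Catsper4 held 0. The Catsper1 peak (chromosome 19, 5339384 to 5340131) covered all of exons 5, 6 and 7, 300 coding bases, with a fold of 1.77, a p of 0.0187, a GC content of 54.3% and no masked base. Catsper1 is only 8.54 kb long, and 7.35% of its 68 like-length genes held a peak. For the other 3 subunits, of 15.4 to 24.4 kb, the shares were 28.7% (Catsper4), 27.5% (Catsper2) and 35.3% (Catsper3), so that 0 peaks in each was the more common outcome.

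Of the 4 genes of sperm energy metabolism, 1 held a peak, where the shares of like-length genes summed to 0.842 genes. The peak lay in Spata18, which encodes a protein of mitochondrial quality control, and overlapped 163 bp of exon 6 with a fold of 1.69. The germ cell glycolytic enzymes Gapdhs and Pgk2 and the lactate dehydrogenase Ldhc held 0, over 13.9, 1.63 and 16.9 kb. Of the 5 regulators, 1 held peaks, where the shares of like-length genes summed to 0.929 genes. Crem, a transcription factor that activates many spermatid genes, held 2 peaks over 71.7 kb, both in intron 3, with folds of 1.67 and 1.68. The testis kinases Tssk1, Tssk2 and Tssk6 and the chaperone Hspa1l held 0, and the nearest peaks to these short genes lay 56.8 to 81.3 kb away.

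**Figure D2:**
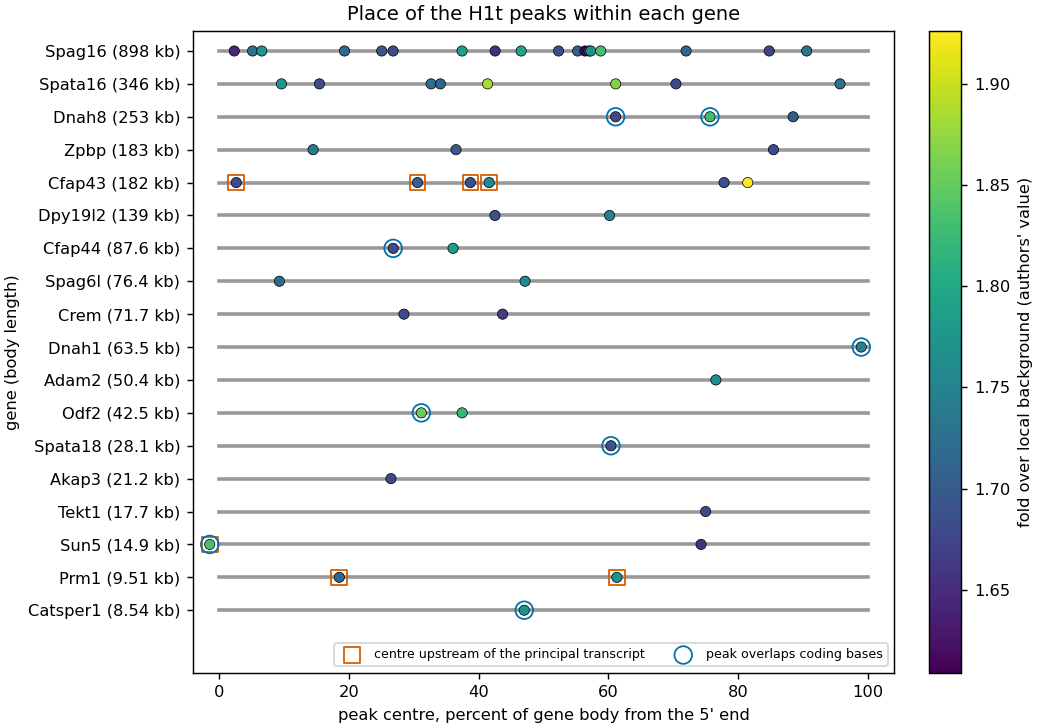
Place of each peak centre in the 18 genes with peaks, as percent of the gene body from its 5′ end (horizontal axis), with the fold over local background as colour. Orange squares mark the 7 peaks centred upstream of the principal transcript and blue circles the 8 peaks that overlap coding bases. Only the Sun5 peak sits at the start of a principal transcript.

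Within the genes, 49 of the 58 peak centres lay in introns of the principal transcript, 2 in exons (Catsper1 and Dnah1) and 7 upstream of it (4 in Cfap43, 2 in Prm1 and 1 in Sun5). Peaks lay all along the genes, and when each gene was cut into 3 equal segments the 5′ segment held 19 centres, the middle segment 25 and the 3′ segment 14. Outside Spag16 these counts were 13, 16 and 11. Coding bases were overlapped by 8 peaks, and for 1 of these, in Odf2, the overlap was 2 bp. The shares in introns, in exons and over coding bases were not worked out for the peaks of other genes.

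A peak lay within 1 kb of an annotated start in 3 of the 46 genes (Clopper-Pearson interval of the share 1.37% to 17.9%), against 8.01% of all protein-coding genes. Only in Sun5 was this the principal start. The Sun5 peak (chromosome 2, 153870981 to 153871601) spanned it, with 104 bp in exon 1, a fold of 1.83 and a p of 0.0132, and its centre lay 0.207 kb upstream in the masked sequence printed above. In Odf2 and Dnah8 the starts concerned were those of alternative transcripts, 0.916 and 0.361 kb from the peaks. No peak lay within 1 kb of an annotated start of the other 43 genes, including the protamine, transition protein and acrosin genes.

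Set against the 100 kb on either side of each gene, the gene bodies did not differ in density beyond counting error. The interval below leaves room for a difference in either direction. The flanks held 160 peaks over 8403 kb, or 0.0190 per kb (interval 0.0162 to 0.0222), and the ratio of body to flank was 1.09 (exact interval 0.792 to 1.48). Single genes had 0 to 8 peaks in their flanks with a median of 4. The density was above that of the flanks in 12 of the 46 genes and below it in 34, of which 28 held no peak. Against the median of their like-length genes, 14 of the 46 were denser, 5 were sparser (Zpbp, Dpy19l2, Adam3, Dnah1 and Dnah8) and 27 were level with a median of 0. A gene with a peak exceeds a median of 0 by necessity, as did Prm1, Akap3, Tekt1, Sun5, Catsper1 and Spata18. The other denser genes, Spata16, Adam2, Odf2, Spag6l, Spag16, Cfap43, Cfap44 and Crem, had like-length medians above 0. These counts were not tested, and the first gives no direction by itself.

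**Figure D3:**
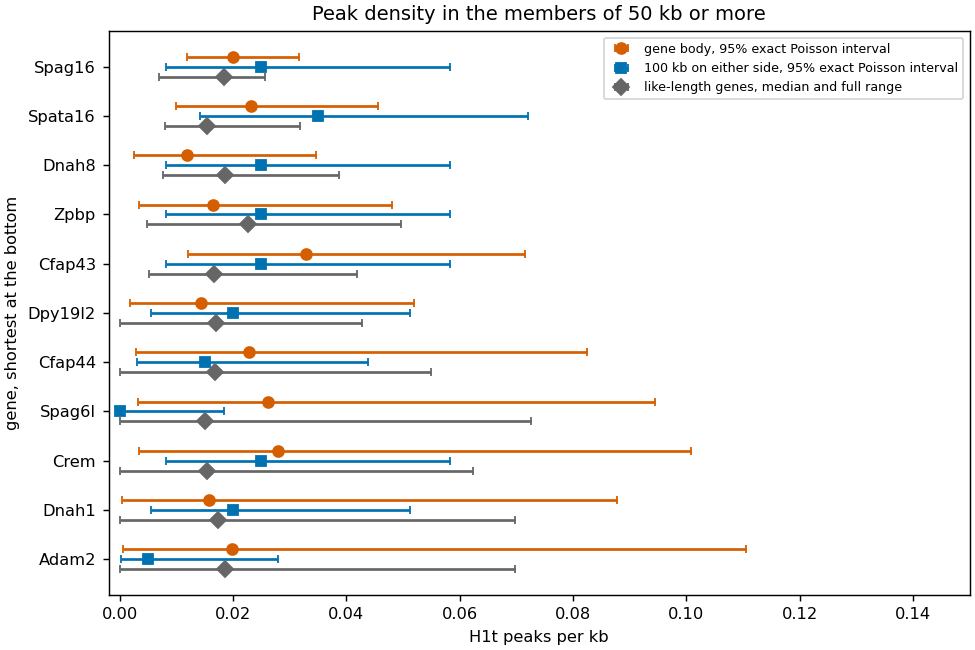
H1t peaks per kb in the 11 genes of 50 kb or more (orange circles), in the 100 kb on either side of each (blue squares) and in its like-length genes (grey diamonds, median with full range). Bars on body and flanks are 95% exact Poisson intervals. The intervals of body and flanks overlap for each of the 11 genes, and each body lies within the range of its like-length genes.

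The peaks in these genes were of usual strength in the middle of their range. Their median fold was 1.72 (1.61 to 1.93), against 1.73 over all peaks and 1.72 over the 19413 peaks in protein-coding genes. Few lay in the upper tail of the list. A p under 0.01 was reached by 1 of the 58 (1.72%, Clopper-Pearson interval 0.0436 to 9.24), against 10.8% of peaks in protein-coding genes and 11.8% of all peaks. None had a fold of at least 2, which allows a share of up to 5.17%, at 3 counts of the total, against 3.24% and 3.64%. None had a q below 1, which 2.75% of peaks in protein-coding genes and 3.33% of all peaks had. The interval for the p treats the peaks as independent, although 32 of the 58 lay in 3 genes, and no test was made. A pileup of 9 fragments, the lowest in the list, was found for 12 of the 58 peaks (20.7%) and for 19.9% of all peaks, and 8 of the 58 reached 10 fragments or more. The local background was raised by over 2% at 8 peaks (13.8%), 4 of them in Spag16, 2 in Cfap43 and 1 each in Zpbp and Dpy19l2, against 22.3% of all peaks.

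**Figure D4:**
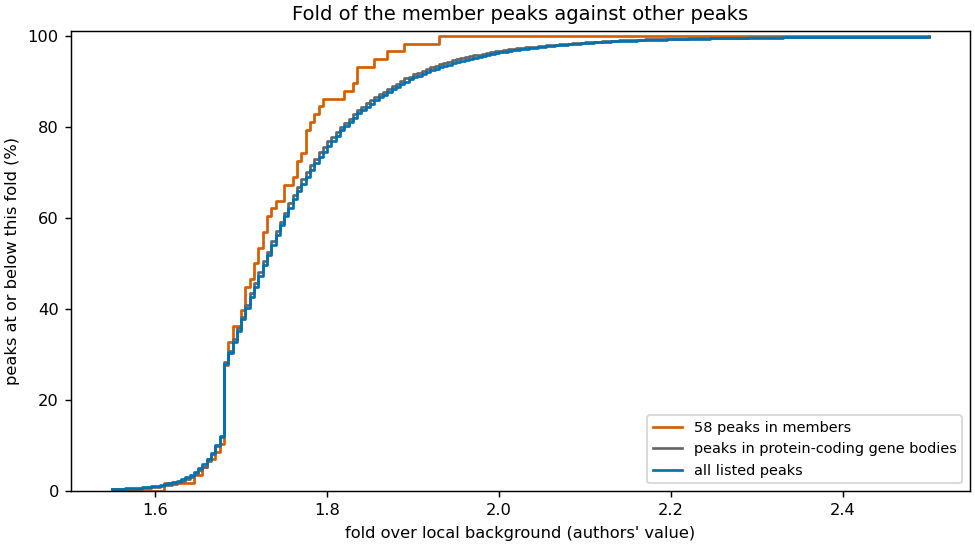
Cumulative share of peaks (vertical axis, percent) at or below each fold over local background (horizontal axis) for the 58 peaks in spermatid and sperm genes (orange), the peaks in protein-coding gene bodies (grey) and all listed peaks (blue). The orange curve reaches 100% at 1.93, whereas 3.64% of all peaks have a fold of at least 2.

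Of the bases under the 58 peaks, 35.5% were masked as repeats. This was close to the 35.3% of the gene bodies and to the 33.65% under all listed peaks. It was above the 26.7% under all peaks in protein-coding genes. Peaks with 50% or more masked sequence numbered 16 of the 58 (27.6%, Clopper-Pearson interval 16.7 to 40.9), against 15.4% of peaks in protein-coding genes and 24.3% of all peaks. This interval also treats the peaks as independent, and no test was made. Many of these peaks lay together in Spag16, at 53.0%, 52.9%, 63%, 100%, 91.4%, 67.6%, 85.5% and 59.4% masked. The share without Spag16 was not worked out. Repeats were not divided into classes. GC content was 43.9% under the peaks and 41.6% over the gene bodies, and CpG density 0.843 and 0.879 per 100 bp. Under all listed peaks GC content was 43.5% and CpG density 0.852. Under peaks in protein-coding genes the values were 44.1% and 0.927. The peaks ranged from 0 CpG in 6 of them (2 in Spata16, 3 in Spag16 and 1 in Cfap43) to 40 in the wide Dnah1 peak.

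Related genes of the same structures gave counts of the same kind. Of 84 such genes, 82 were matched to a protein-coding gene and 38 held a peak, where the like-length shares summed to 38.9. Their 123 peaks gave 0.0197 per kb (interval 0.0164 to 0.0235). Axonemal dyneins held peaks in 11 of 13 genes, where the shares summed to 12.6, and 7 of the 13 were denser than their like-length median. The most lay in Dnah12, with 11 peaks in 198 kb, a density of 0.0554 per kb against a like-length median of 0.0219, followed by Dnah7a, Dnah9 and Dnah11 with 9 each. Cilia and flagella associated genes held peaks in 16 of 23 (sum 13.8), with 7 in Cfap54 and 3 each in Cfap53, Cfap57, Cfap58, Cfap61 and Cfap77. Further CatSper genes held peaks in 3 of 7 (sum 3.62), with 3 in Catspere2 and 1 each in Catsperb and Efcab9. Testis ADAM genes held peaks in 4 of 18 (sum 5.09), with 2 in Adam5 and 1 each in Adam21, Adam29 and Adam32. The last list, of tektin, kinase, fibre, acrosomal, Spag and other genes, held peaks in 4 of 21 (sum 3.83), with 3 in Spag17 and 1 each in Odf3l1, Spaca6 and Tekt3.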

How the data were processed

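H1t occupancy was measured in 2 ChIP and 2 input libraries of mouse testicular cells at postnatal day 20. According to the sample labels and the file header, the authors used FastQC 0.11.5 for read quality and Bowtie2 for alignment to GRCm38.p5. Broad peaks came from MACS2 2.1.2, run on pooled libraries at a p-value cutoff of 0.05. The deposited table gives a pileup signal, a fold ratio over local background, and the −log10 of p and q per peak, all values of the authors' peak caller. The listed peaks carry the numbers 310 to 48990, and lower numbers are not analysed here. The header states that q was not computed while a column holds values. That column and the one of p have damaged names and were taken by their place in the table.

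The 48681 peaks were compared with gene bodies of GENCODE vM21 (GRCm38.p6, with the same chromosome coordinates), using Python 3.11.15, numpy 2.4.6, pandas 2.3.3, scipy 1.17.1 and matplotlib 3.10.9. All 46 genes were found. Genes whose symbol is repeated were counted once. Like-length genes are protein-coding, on the same chromosome and within 20% of the length, or the 10 nearest in length where fewer than 10 qualified (2 genes). They exclude the 46 genes and any that overlap the gene compared. The principal transcript is the APPRIS principal one of GENCODE. The local background was recovered from each pileup and fold, both raised by a pseudocount of 1, and called raised when over 2% above the genome-wide 4.95 fragments. Masked bases are the lower-case bases of the reference genome. Every gene with a peak is described, and those without one are grouped by role. The rule for naming the latter (the 5 longest and the protamine and transition protein genes) was widened, after their values were seen, to all 28. Related genes named are the 2 with the most peaks in each list, ties included. Sequences are from the RefSeq GRCm38.p6 genome, for the 8 genes with the highest fold. The counting was tested on simulated data. The genes and lists were chosen with earlier results of these data known. No test between groups was made, because the libraries were pooled. The number of per-sample value columns not used was 0.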

Additional observations from a re-analysis of the deposited data

How the results depend on the processing

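The count of 18 genes with a peak, the 58 peaks and their density of 0.0207 per kb moved only with the strength asked of a peak. With a q under 0.05 or a fold of at least 2, 0 genes held a peak and 0 peaks lay in them (0 peaks per kb), 0 genes exceeded their like-length median and 0 had a peak at a start, while 0.255% of all peaks had such a q and 3.64% such a fold. The ratio of body to flank density was 0 for the fold and could not be formed for the q. With a p under 0.01, 1 peak remained in 1 gene (Cfap43), at 0.000358 per kb and a ratio of 0.376, 1 gene exceeded its like-length median and 0 had a peak at a start. With a start window of 5 kb, 10 of the 46 genes had a peak in it in place of 3, against 24.95% of protein-coding genes. Merging peaks within 3 kb, peak centres, RefSeq bodies, other like-length rules and flanks of 50 kb moved none of these totals by over 1.5 times and no density or ratio beyond its interval. Neither did principal transcript spans, peaks without a raised background or leaving out Spag16, which were chosen after seeing the data. Single genes moved more: RefSeq bodies and principal spans took the 2 peaks from Prm1 and 4 of 6 from Cfap43, RefSeq bodies gave Dnah1 2 in place of 1, peak centres left Sun5 1 of 2 and merging left Odf2 1 of 2. Without raised backgrounds, Dpy19l2 kept 1 of 2, Zpbp 2 of 3, Cfap43 4 of 6 and Spag16 14 of 18. Leaving out a library was not possible because the libraries were pooled before peak calling. No paired analysis was possible because no test between groups was made on the pooled list. At the mean density of peaks a gene of 10 kb is usually without one, and the effect of sequencing depth was not tested.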
